A study of Schizosaccharomyces pombe with 17 samples.

Results

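Transfer RNAs encoded in the nuclear genome of the fission yeast Schizosaccharomyces pombe were followed across mutants of Rrp6 and Dis3, the exonucleases of the RNA exosome. The members were all rows of the deposited expression table whose systematic name begins SPATRNA, SPBTRNA or SPCTRNA, for chromosomes I, II and III, and they number 171 of 7027 rows. Each was grouped by the amino acid in its name. PolyA-selected RNA from vegetative cells in YES medium was sequenced in 14 libraries, which form 7 groups of 2.

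Wild type, the strain labelled rrp6Δ and the strain labelled rrp6-cat were grown at 32 °C. The strains dis3-4, labelled temperature-sensitive, and rrp6-cat dis3-4, the double mutant, were grown at 23 °C and sampled there or after 1 h at 30 °C. Each genotype is a separately named strain, and nothing in the labels says whether the 2 libraries of a group came from separate cultures, so p-values measure the spread between these libraries only. Wild type was sampled at 32 °C alone. In its comparisons with dis3-4 and the double mutant, the effects of genotype and of temperature cannot be told apart.

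RNA polymerase III makes tRNAs as precursors with a 5′ leader and a 3′ trailer, and some genes carry a short intron next to the anticodon. RNase P, RNase Z and the tRNA splicing endonuclease and ligase turn these into the mature RNA, which has CCA at its 3′ end and no polyA tail. In yeasts, defective or unprocessed precursors can receive a short oligoadenylate tail from the TRAMP complex, which marks them for the exosome. PolyA selection therefore does not measure the pool of mature tRNA.

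The gene sequences below compare rows with values to close relatives without them, and do not explain which row had values. They are RefSeq sequences of build ASM294v3, matched by systematic name, as all 171 rows could be, and are written 5′ to 3′ on the gene's own strand with the intron in capitals. The deposited values were made with ASM294v2, so no coordinates are given. SPBTRNAMET.04, a tRNA for methionine inside proteins, lies on the plus strand of chromosome II and SPBTRNAMET.05 on its minus strand, and they differ at 2 positions, both in the intron. The leucine genes SPATRNALEU.02 (chromosome I, minus strand) and SPBTRNALEU.05 (chromosome II, minus strand) likewise differ at 2 intron positions. The tyrosine genes SPATRNATYR.01 (chromosome I, plus strand) and SPBTRNATYR.02 (chromosome II, plus strand) need 4 changes to align, all in the intron. The asparagine genes SPBTRNAASN.04 and SPBTRNAASN.01, both on the minus strand of chromosome II, have no intron and differ at 1 position. SPATRNAILE.02 (chromosome I, plus strand) held the highest mean value of all.
SPBTRNAMET.04: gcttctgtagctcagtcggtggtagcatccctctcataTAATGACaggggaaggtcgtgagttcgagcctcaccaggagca
SPBTRNAMET.05: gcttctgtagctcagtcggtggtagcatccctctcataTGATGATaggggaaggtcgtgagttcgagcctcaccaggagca
SPATRNALEU.02: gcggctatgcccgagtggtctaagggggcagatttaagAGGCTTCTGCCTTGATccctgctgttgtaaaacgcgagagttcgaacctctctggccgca
SPBTRNALEU.05: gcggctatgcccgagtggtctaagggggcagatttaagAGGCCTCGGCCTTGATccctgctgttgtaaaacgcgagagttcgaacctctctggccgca
SPATRNATYR.01: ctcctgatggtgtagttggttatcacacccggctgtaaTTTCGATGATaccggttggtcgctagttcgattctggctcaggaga
SPBTRNATYR.02: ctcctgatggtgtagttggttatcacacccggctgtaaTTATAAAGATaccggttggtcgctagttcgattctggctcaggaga
SPBTRNAASN.04: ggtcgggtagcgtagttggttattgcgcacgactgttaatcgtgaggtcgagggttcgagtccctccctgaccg
SPBTRNAASN.01: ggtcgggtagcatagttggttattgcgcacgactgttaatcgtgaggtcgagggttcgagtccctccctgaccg
SPATRNAILE.02: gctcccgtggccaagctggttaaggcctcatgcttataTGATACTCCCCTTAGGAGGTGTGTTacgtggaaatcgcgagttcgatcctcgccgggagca

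The targeted gene was checked first. In FPKM, which counts fragments per length of gene and per size of library, rrp6 stood at 179 and 128 in the libraries labelled rrp6Δ and at 95.4 and 43.2 in wild type. Its level was thus not low under the deletion label, and these are called the libraries labelled rrp6Δ throughout. Where groups are called mutant, or labelled with an rrp6 allele, that too is by their labels. Relative depth, read from what 1 fragment is worth in FPKM, ran from 0.245 to 1.10 times that of wild type replicate 1, and the lowest was wild type replicate 2. RNAs without a polyA tail when mature also differed between groups. The summed snoRNA level was 2064 and 736 FPKM in wild type, 64553 and 37029 FPKM in the libraries labelled rrp6Δ, and 15771 to 31002 FPKM in the other mutant libraries. Summed rRNA levels overlapped, at 1194 and 2490 FPKM in wild type and 1527 to 5677 FPKM in the mutants. Mitochondrial tRNAs summed to between 0 and 23.8 FPKM per library, with the highest value in wild type replicate 2. The 5 sporulation genes mei4, spo5, rec8, mei2 and ste11 summed to 10.4 and 44.7 FPKM in wild type, 1221 and 1402 FPKM in the libraries labelled rrp6Δ and 65.2 to 173 FPKM in the other mutants, and of the 5 only rec8 was at 0 in any library, wild type replicate 2. The sum does not stand for each gene. In the same order of groups, ste11 was at 6.20 and 23.4, 19.2 and 19.9, and 7.91 to 31.5 FPKM. For mei2 the values were 1.45 and 5.20, 13.1 and 14.0, and 3.19 to 6.65 FPKM. The part of these differences in the tRNA values was not tested.

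Of the 171 tRNA rows, 31 were above 0 in at least 1 library and 140 were listed at 0 in all 14. Whether a row had a value followed the number of copies of its gene. Of 37 rows whose whole gene sequence occurs once in the reference genome, counting both strands, 31 had a value, and of 134 rows whose sequence occurs more than once, 0 had a value. Those 134 rows fall into 31 sets of identical genes, the largest of 9 alanine genes. The sources used here do not say how reads that match several places were treated, so a 0 in such a row is not a measurement of absence.

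Among single-copy genes, 16 of 19 with an intron and 15 of 18 without one had a value. The 6 single-copy genes listed at 0 throughout were SPATRNATHR.03, SPBTRNALEU.05, SPBTRNAMET.05, SPBTRNALYS.06, SPBTRNATYR.04 and SPBTRNAPRO.08. Single-copy genes that differ at 1 position from their nearest relative had values in 8 of 10 cases, and those at 4 or more positions in 15 of 16.

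By amino acid, 15 of 20 families had at least 1 row above 0. Arginine had 5 of 13, glycine 4 of 12, leucine and serine 3 of 13 each, and threonine 3 of 10. Methionine had 2 of 7, proline 2 of 9 and valine 2 of 12. Alanine (of 12), asparagine (of 6), cysteine (of 3), isoleucine (of 9), lysine (of 12), phenylalanine (of 5) and tyrosine (of 4) had 1 each. Aspartate (8 rows), glutamine (6), glutamate (10), histidine (4) and tryptophan (3) had none, and none of their genes is single-copy. In the reference, 5 rows named for aspartate are annotated as asparagine tRNAs. All 8 aspartate rows nevertheless hold the same gene sequence, SPBTRNAASP.05 as its reverse complement, and the others are annotated as aspartate.

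**Figure D1:**
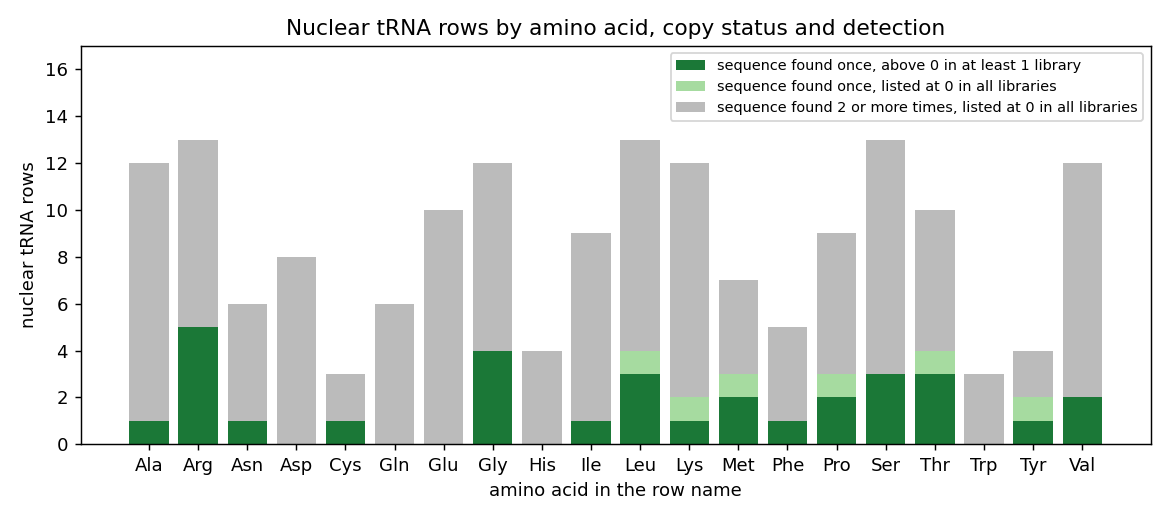
Bars count nuclear tRNA rows for each amino acid in the row name (y axis, number of rows). Dark green marks the 31 single-copy rows above 0 in at least 1 of 14 libraries, light green the 6 single-copy rows listed at 0 throughout, and grey the 134 rows whose gene sequence occurs more than once, all listed at 0.

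The values rest on few fragments. FPKM times gene length, intron included, was a whole multiple of 1 constant per library for 171 of 177 values above 0, within 0.01 of a whole number, and 1 such step was taken as 1 fragment. Of the exceptions, the single value of SPBTRNAARG.05 was whole with the mature length, and the 5 values of SPATRNALEU.03 could not be recovered. The other 30 rows held 522 fragments over 14 libraries, with 78 of their 172 values at 1 fragment and 105 at 1 or 2. On a 71-nt gene, 1 fragment was worth between 6.11 and 27.5 FPKM depending on the library, so small differences in FPKM are not detectable at this depth. The 3 rows with most, SPATRNAILE.02 with 96 fragments, SPBTRNAMET.04 with 60 and SPATRNAPRO.02 with 45, held 38.5% of them.

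Per depth of wild type replicate 1, the tRNA rows held least in wild type, more in dis3-4 and most in the 4 groups labelled with an rrp6 allele. The wild type libraries had 7 and 8.17 fragments, the dis3-4 libraries 28.2 and 38.7 at 23 °C and 30.5 and 45.4 at 30 °C. The libraries labelled rrp6Δ had 124 and 75.6, rrp6-cat 120 and 122, and the double mutant 79.1 and 106 at 23 °C and 122 and 71.6 at 30 °C. Every mutant library lay above both wild type libraries, and every library of the 4 groups labelled with an rrp6 allele lay above all 4 dis3-4 libraries.

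Over both libraries of a group the rates, with exact Poisson 95% intervals that cover counting error only, were 7.23 (3.31 to 13.7) in wild type, 109 (89.1 to 131) in the libraries labelled rrp6Δ and 121 (104 to 139) in rrp6-cat. They were 32.2 (20.6 to 47.9) and 36.8 (23.3 to 55.2) in dis3-4 at 23 °C and 30 °C, and 91.4 (70.7 to 116) and 94.1 (76.6 to 114) in the double mutant. Amplified reads are not independent molecules, so the true error is larger, and no test was made of this sum over members. Without SPATRNAILE.02 the same order held, at 4.09 to 7 in wild type, 23.8 to 34.1 in dis3-4 and 52.8 to 108 in the other libraries. In bulk RNA, fewer cells with a transcript and less of it per cell cannot be told apart.

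**Figure D2:**
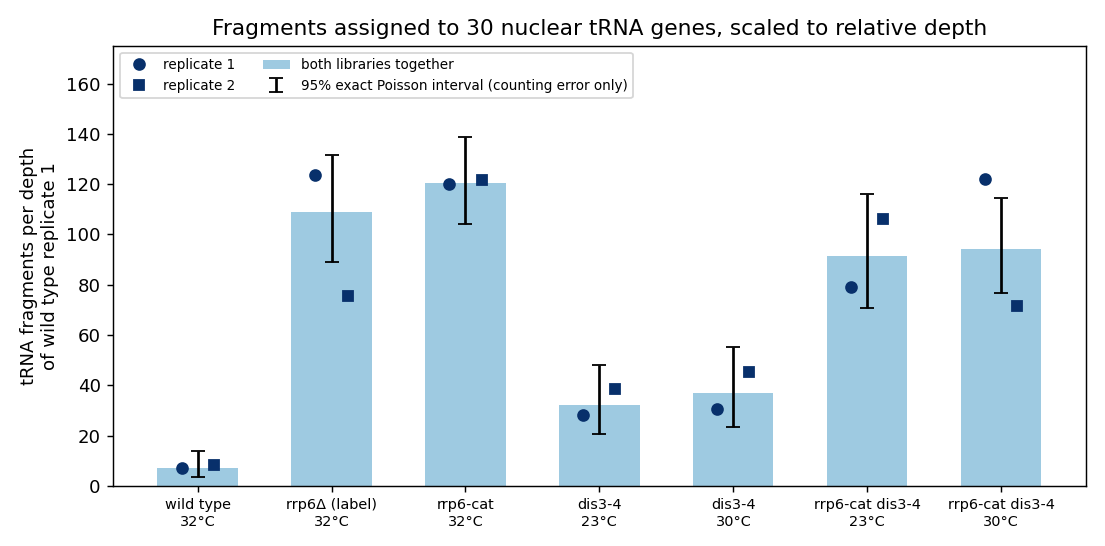
Bars give tRNA fragments per depth of wild type replicate 1 (y axis) over both libraries of each group (x axis), with exact Poisson 95% intervals for counting error, and symbols mark the 2 libraries. Wild type lies at 7.23, dis3-4 at 32.2 and 36.8, and the 4 groups labelled with an rrp6 allele between 91.4 and 121.

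Genes with an intron held 411 of the 522 fragments. They are 44 of the 171 rows and 16 of the 31 with a value, counting SPATRNALEU.03, whose fragments are not in the 522. Among rows with a value, genes with an intron were 81 to 102 nt long and the others 71 to 74 nt. The shares were not scaled to length. The share of genes with an intron was 9 of 9 fragments in wild type, 65.4% (exact binomial 95% interval 55.6 to 74.4) in the libraries labelled rrp6Δ and 76.7% (70.1 to 82.5) in rrp6-cat. In the double mutant it was 83.3% (72.1 to 91.4) at 23 °C and 89.0% (81.2 to 94.4) at 30 °C, and in dis3-4 79.2% (57.9 to 92.9) and 91.3% (72.0 to 98.9). These intervals cover counting error within pooled libraries, and the differences between groups were not tested over libraries.

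In 6 rows, SPATRNATYR.01, SPATRNALEU.02, SPATRNAMET.02, SPBTRNAMET.04, SPATRNAVAL.03 and SPATRNALYS.01, the mature sequence is shared with other tRNA genes and the gene is set apart by its intron alone. They held 158 fragments. Between the pairs printed above, SPBTRNAMET.04 held 60 fragments and SPBTRNAMET.05 held 0, SPATRNALEU.02 held 42 and SPBTRNALEU.05 held 0, and SPATRNATYR.01 held 36 and SPBTRNATYR.02, itself one of 2 identical copies, held 0. SPBTRNAASN.04 held 35 and SPBTRNAASN.01, one of 5 identical copies, held 0.

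**Figure D3:**
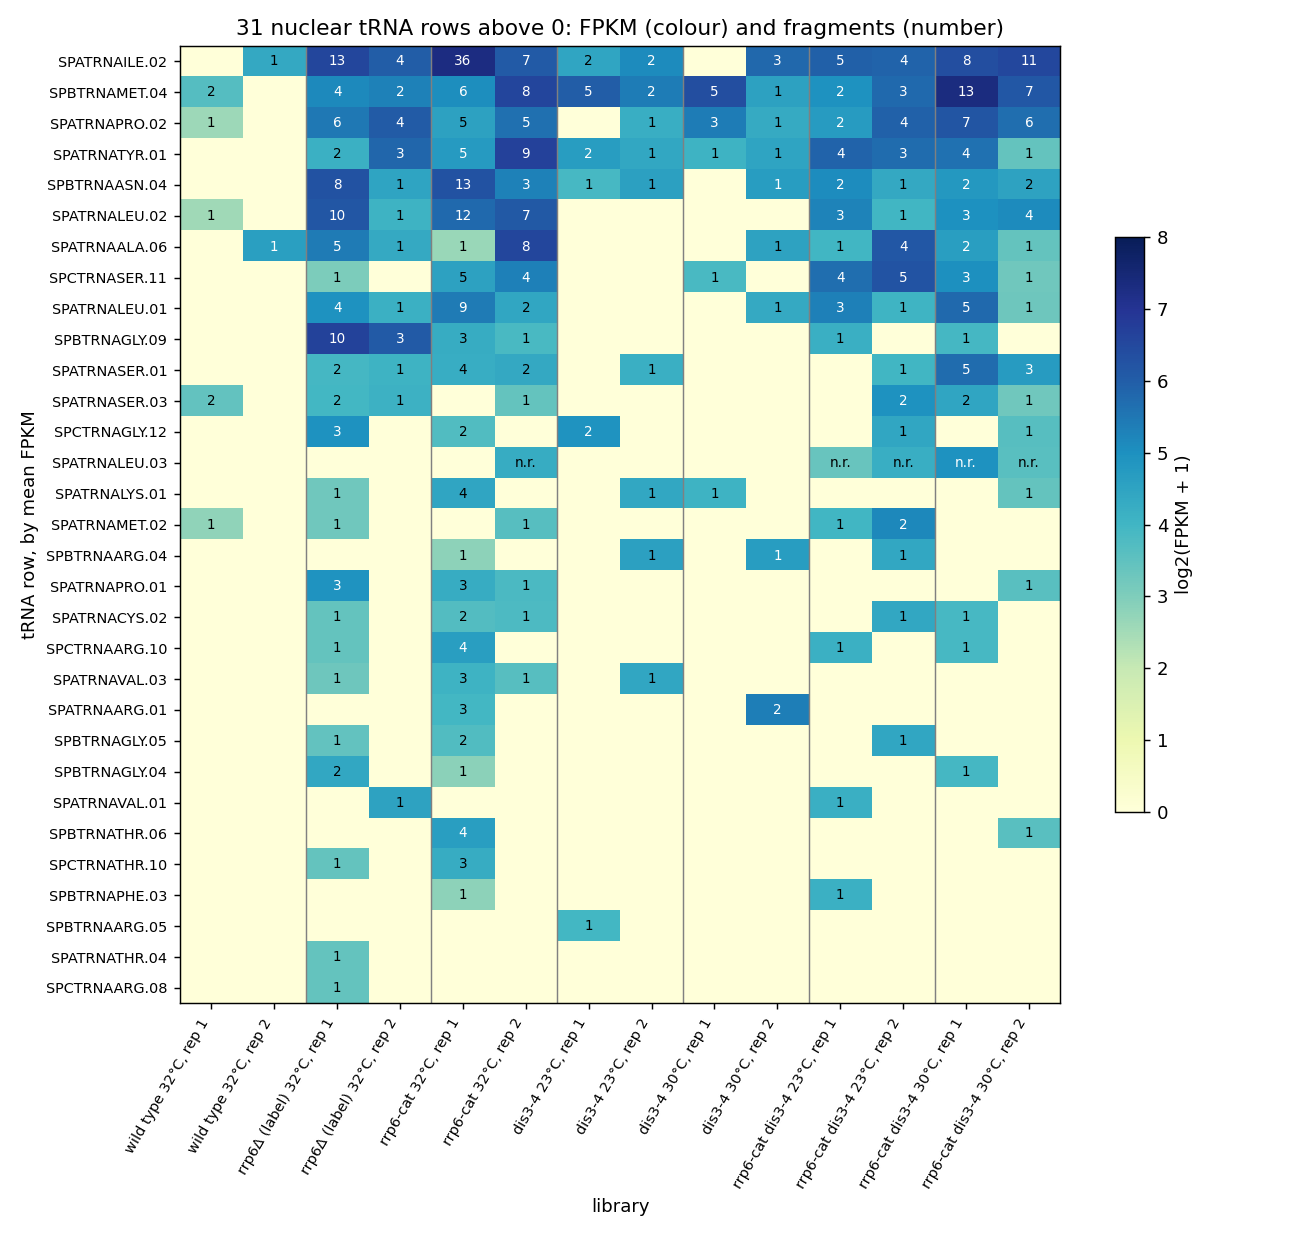
Each row is 1 of the 31 nuclear tRNA rows above 0 and each column 1 library, with colour for log2(FPKM + 1) and the number of fragments printed in each cell above 0 (n.r., not recovered). The wild type columns hold 9 fragments in all, and the cell with the most is SPATRNAILE.02 in rrp6-cat replicate 1, with 36 fragments.

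Tyrosine was measured through SPATRNATYR.01, which carries a 10-nt intron. Wild type held 0 fragments of it, while the libraries labelled rrp6Δ had 16.7 and 56.0 FPKM. It stood at 25.8 and 101.9 FPKM in rrp6-cat, 24.6 and 19.95 FPKM in dis3-4 at 23 °C, 15.7 and 21.5 FPKM in dis3-4 at 30 °C, 57.9 and 51.6 FPKM in the double mutant at 23 °C and 47.7 and 9.68 FPKM there at 30 °C. It was above 0 in all 12 mutant libraries, so no mutant group overlapped with wild type. Of all features with a mean of at least 1 FPKM, 20.5% to 35.3% per mutant group also lay wholly above wild type. That share stands beside each such statement on a row below. It overlaps the coding gene SPAC105.03c on the opposite strand, which had group means between 11.1 ± 0.719 FPKM (SD, n = 2) in the double mutant at 30 °C and 23.1 ± 14.8 FPKM (SD, n = 2) in wild type. The libraries were made stranded, but the sources used here do not say whether the counting used strand.

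Methionine had values in SPBTRNAMET.04 and SPATRNAMET.02, both with introns and both for methionine inside proteins, while the 4 identical initiator genes were at 0. SPBTRNAMET.04 was listed at 11.8 and 0 FPKM in wild type, 34.7 and 38.7 FPKM in the libraries labelled rrp6Δ, 32.1 and 93.9 FPKM in rrp6-cat, 63.8 and 41.4 FPKM in dis3-4 at 23 °C, 81.5 and 22.3 FPKM in dis3-4 at 30 °C, 30.0 and 53.5 FPKM in the double mutant at 23 °C and 161 and 70.2 FPKM there at 30 °C. All 12 mutant libraries lay above both wild type libraries, while the mutant groups overlapped each other widely. The lowest mutant value, 22.3 FPKM, was 1 fragment, while the 11.8 FPKM in wild type was 2 fragments in a deeper library. Per depth of wild type replicate 1 it held 9.38 and 9.59 fragments in dis3-4 at 23 °C and 30 °C, 6.10 in the libraries labelled rrp6Δ, 8.74 in rrp6-cat, and 6.92 and 18.8 in the double mutant. SPATRNAMET.02 held 6 fragments in all, 1 of them in wild type, and overlaps a long non-coding RNA gene on the opposite strand that has no row in the table.

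Leucine had 3 rows with introns. SPATRNALEU.02 was listed at 4.87 and 0 FPKM in wild type, 71.6 and 16.0 FPKM in the libraries labelled rrp6Δ, 53.1 and 67.9 FPKM in rrp6-cat, 0 in all 4 dis3-4 libraries, 37.2 and 14.7 FPKM in the double mutant at 23 °C and 30.7 and 33.2 FPKM there at 30 °C. All 8 libraries labelled with an rrp6 allele lay above all wild type and dis3-4 libraries. For scale, 33.2% of all features at 23 °C and 41.0% at 30 °C lay wholly higher in the double mutant than in dis3-4. With 0 fragments in dis3-4, up to 4.02 fragments per depth at 23 °C and 4.80 at 30 °C are allowed (3 fragments over the group), against rates of 5.54 to 11.9 in the 4 groups labelled with an rrp6 allele.

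SPATRNALEU.01 was listed at 0 in wild type, 29.9 and 16.7 FPKM in the libraries labelled rrp6Δ, 41.5 and 20.2 FPKM in rrp6-cat, 0 and 0 in dis3-4 at 23 °C, 0 and 19.2 FPKM in dis3-4 at 30 °C, 38.8 and 15.4 FPKM in the double mutant at 23 °C and 53.3 and 8.65 FPKM there at 30 °C. The groups labelled with an rrp6 allele lay above wild type, and the single dis3-4 value, from 1 fragment, lay inside their range. SPATRNALEU.03 was above 0 in 5 libraries, 18.1 FPKM in rrp6-cat replicate 2, 9.25 and 17.3 FPKM in the double mutant at 23 °C and 30.3 and 11.2 FPKM there at 30 °C.

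Serine had values in 3 genes with introns, SPCTRNASER.11 (sup9), SPATRNASER.03 (sup3) and SPATRNASER.01. Each lies 7 nt from an initiator methionine gene on the same strand, an arrangement known in fission yeast to be transcribed as 1 dimeric precursor. The 3 methionine genes are among 4 identical copies listed at 0. SPCTRNASER.11 was listed at 0 in wild type, 7.23 and 0 FPKM in the libraries labelled rrp6Δ, 22.4 and 39.2 FPKM in rrp6-cat, 0 and 0 in dis3-4 at 23 °C, 13.6 and 0 FPKM in dis3-4 at 30 °C, 50.2 and 74.5 FPKM in the double mutant at 23 °C and 31.01 and 8.38 FPKM there at 30 °C. It was highest in the double mutant at 23 °C, with 9 fragments, and had 1 fragment in the libraries labelled rrp6Δ.

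SPATRNASER.01 was at 0 in wild type and highest in the double mutant at 30 °C, with 51.1 and 24.9 FPKM, and was between 0 and 19.4 FPKM elsewhere. SPATRNASER.03, which differs from SPCTRNASER.11 at 1 position, held 2 fragments in wild type replicate 1 and 0 to 2 per library elsewhere. SPCTRNASER.11 and SPATRNASER.01 overlap long non-coding RNA genes on the opposite strand that have no row in the table.

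Isoleucine and proline were led by genes with longer introns. SPATRNAILE.02, with a 25-nt intron, was listed at 0 and 19.7 FPKM in wild type, 92.1 and 63.4 FPKM in the libraries labelled rrp6Δ, 158 and 67.2 FPKM in rrp6-cat, 20.9 and 33.9 FPKM in dis3-4 at 23 °C, 0 and 54.7 FPKM in dis3-4 at 30 °C, 61.5 and 58.4 FPKM in the double mutant at 23 °C and 81.0 and 90.3 FPKM there at 30 °C. All 8 libraries labelled with an rrp6 allele lay above wild type and all dis3-4 libraries. The lowest of the 8, at 58.4 FPKM, held 4 fragments, and the highest dis3-4 library, at 54.7 FPKM, held 3. Of all features, 33.2% at 23 °C and 41.0% at 30 °C also lay wholly higher in the double mutant than in dis3-4. The 1 wild type fragment of SPATRNAILE.02 fell in replicate 2, where a fragment is worth most. It was called in no comparison. Its log2 differences from wild type ranged from 0.71 ± 1.55 (SE) in dis3-4 at 30 °C to 4.52 ± 1.55 (SE) in rrp6-cat, and the lowest limma adjusted p was 0.0952, in the double mutant at 30 °C.

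SPATRNAPRO.02, named spl1 in the reference and with a 24-nt intron, was listed at 4.92 and 0 FPKM in wild type, 43.4 and 64.7 FPKM in the libraries labelled rrp6Δ, 22.4 and 49.0 FPKM in rrp6-cat, 0 and 17.3 FPKM in dis3-4 at 23 °C, 40.9 and 18.6 FPKM in dis3-4 at 30 °C, 25.1 and 59.6 FPKM in the double mutant at 23 °C and 72.3 and 50.3 FPKM there at 30 °C. It overlapped with wild type in dis3-4 at 23 °C alone. The alanine row SPATRNAALA.06, with an 11-nt intron, had 1 wild type fragment, worth 23.5 FPKM, and between 0 and 91.6 FPKM in the mutants.

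Among genes without an intron, asparagine and glycine stood highest. SPBTRNAASN.04 was listed at 0 in wild type, 75.9 and 21.2 FPKM in the libraries labelled rrp6Δ, 76.2 and 38.5 FPKM in rrp6-cat, 14.0 and 22.7 FPKM in dis3-4 at 23 °C, 0 and 24.4 FPKM in dis3-4 at 30 °C, 32.9 and 19.5 FPKM in the double mutant at 23 °C and 27.1 and 22.0 FPKM there at 30 °C. Wild type did not overlap any mutant group but dis3-4 at 30 °C, where 1 library was also at 0. SPBTRNAGLY.09 was listed at 0 in wild type and in all 4 dis3-4 libraries, while the libraries labelled rrp6Δ had 98.8 and 66.3 FPKM. It had 18.3 and 13.4 FPKM in rrp6-cat, and 17.1 and 0 FPKM and 14.1 and 0 FPKM in the double mutant at 23 °C and 30 °C. It was the row with the highest mean in the libraries labelled rrp6Δ, with 13 of its 19 fragments there.

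The remaining families were near 1 fragment per library. Lysine (SPATRNALYS.01, 8 fragments), arginine (SPBTRNAARG.04, 4 fragments) and cysteine (SPATRNACYS.02, 6 fragments) had all their fragments in mutant libraries. So did valine (SPATRNAVAL.03, 6 fragments), threonine (SPBTRNATHR.06, 5 fragments) and phenylalanine (SPBTRNAPHE.03, 2 fragments). Most libraries and most of the summed depth were mutant, so rows with so few fragments can miss wild type without any difference between groups. SPATRNACYS.02, SPATRNAVAL.03 and SPATRNATHR.04 overlap long non-coding RNA genes on the opposite strand that have no row in the table.

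Differences were tested with limma on log2(FPKM + 1) over 6083 features with a mean of at least 1 FPKM, with Benjamini-Hochberg adjustment and a call at adjusted p under 0.05. Fold changes are on the log2(FPKM + 1) scale, and for rows with zeros they depend on the added 1 and can lie above or below the ratio of fragments. Of the tRNA rows 29 entered the test, and 22 of them were listed at 0 in both wild type libraries. Such rows passed through mutant libraries alone and could differ from wild type in 1 direction only, so the counts below describe the rows and are no evidence for tRNAs as a class. The replicate variance of the tRNA rows, 1.49 to 3.76 per group in log2 units squared, exceeded that of all features, 0.166 to 0.663.

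Against wild type, 7 of the 29 rows were called higher in the libraries labelled rrp6Δ, where 9.81% of all features were higher, and 6 in rrp6-cat, where 4.88% were. In dis3-4, 2 rows were called higher at 23 °C (4.39% of features) and 2 at 30 °C (6.38%). In the double mutant 8 were higher at 23 °C (9.42%) and 9 at 30 °C (11.7%). No tRNA row was called lower in any of them. The median log2 difference of all features lay between -0.03 and 0.24 in these comparisons. It lay between 0 and 0.04 with median-ratio size factors and between -0.14 and -0.11 with quantile normalization. No tRNA call changed direction under either scaling, which says little, as most called rows were at 0 in wild type. In all, 10 rows were called in some comparison, 8 with an intron and 2, SPBTRNAASN.04 and SPBTRNAGLY.09, without. The 6 comparisons share the wild type libraries.

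SPATRNATYR.01 rose in all 6 comparisons. By limma its log2 difference was 4.99 ± 0.75 (SE) in the libraries labelled rrp6Δ (adjusted p = 0.00102) and 5.71 ± 0.75 in rrp6-cat (adjusted p = 0.00084). In the double mutant it was 5.80 ± 0.75 at 23 °C (limma adjusted p = 0.000503) and 4.51 ± 0.75 at 30 °C (adjusted p = 0.00246). In dis3-4 it was 4.53 ± 0.75 at 23 °C (limma adjusted p = 0.00416) and 4.28 ± 0.75 at 30 °C (adjusted p = 0.00448), on 3 and 2 fragments. Set against a floor of 3 fragments over the wild type libraries, its fragments per depth were 3.63-fold the floor in rrp6-cat. In the double mutant at 23 °C they were 4.02-fold the floor. Folds against a floor leave out the counting error of the higher group, so they are not lower limits of the difference. In dis3-4 SPATRNATYR.01 held no more than 3 fragments, so no fold is given there. Its rates there, 4.02 and 3.20 per depth at 23 °C and 30 °C, lay above the wild type floor of 2.41. They were not above the 3-fragment floors of the dis3-4 groups themselves, 4.02 and 4.80, so they do not show a rise. The calls in the libraries labelled rrp6Δ, in rrp6-cat and in both double mutant groups were the 4 of all 37 tRNA calls that held with any 1 library of the compared groups left out. Of these, the call in the double mutant at 30 °C was lost with a pseudocount of 10. The remaining 3 of the 37 also held under every other setting run. In dis3-4 the SPATRNATYR.01 calls were lost without replicate 1 at 23 °C and without replicate 2 at 30 °C. Both were also lost with a pseudocount of 10 and with array weights per group.

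SPBTRNAMET.04 also rose in all 6, with log2 differences from 3.40 ± 0.99 (SE) in the libraries labelled rrp6Δ (limma adjusted p = 0.0431) to 4.91 ± 0.99 in the double mutant at 30 °C (adjusted p = 0.00711). In fragments, with 2 in wild type, the ratio was 11.7 (95% counting interval 2.85 to 103) in the double mutant at 30 °C and 3.79 (0.679 to 38.45) in the libraries labelled rrp6Δ. The interval includes 1 there and in the double mutant at 23 °C (4.31, 0.706 to 45.25). Without wild type replicate 2 the calls were lost in all groups but the double mutant at 30 °C, where the call was lost without double mutant replicate 1. Each of the other calls was also lost without either library of its mutant group.

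SPATRNALEU.02 rose in the libraries labelled rrp6Δ, by 3.86 ± 0.81 (SE) on the log2 scale (limma adjusted p = 0.00871), and by 4.66 ± 0.81 in rrp6-cat (adjusted p = 0.00527), where the fragment ratio was 14.8 (95% counting interval 2.35 to 614). In the double mutant it rose by 3.34 ± 0.81 at 23 °C (limma adjusted p = 0.0208) and 3.76 ± 0.81 at 30 °C (adjusted p = 0.0098). The fragment ratio was 13.9 (2.02 to 599) in the libraries labelled rrp6Δ, 8.20 (1.05 to 369.5) in the double mutant at 30 °C and 6.89 (0.682 to 339.5) at 23 °C, where the interval includes 1. Without wild type replicate 2 these 3 calls were lost, and without rrp6-cat replicate 2 the call in rrp6-cat was. SPATRNALEU.01 and SPBTRNAASN.04 rose in the same 4 comparisons, with log2 differences of 4.52 to 4.91 and 4.67 to 5.79. Fragments of SPATRNALEU.01 per depth were 2.11-fold to 2.85-fold the wild type floor over the 4 groups. Those of SPBTRNAASN.04 were 1.56-fold to 4.15-fold the floor in all but the double mutant at 23 °C, where no fold is given for its 3 fragments. Every SPATRNALEU.01 call was lost without wild type replicate 2, and so was every SPBTRNAASN.04 call but that in the libraries labelled rrp6Δ, which was lost without their replicate 1.

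SPATRNAPRO.02 rose in the libraries labelled rrp6Δ by 4.47 ± 1.13 (SE) on the log2 scale (limma adjusted p = 0.0237) and in the double mutant by 4.03 ± 1.13 at 23 °C and 4.66 ± 1.13 at 30 °C (adjusted p = 0.0399 and 0.0184). SPCTRNASER.11 rose in rrp6-cat and in both double mutant groups, most at 23 °C, by 5.96 ± 1.17 (SE) on the log2 scale (limma adjusted p = 0.00713). Its fragments per depth there were 5.17-fold the wild type floor. SPATRNALEU.03 rose in both double mutant groups, and SPATRNASER.01 rose in the double mutant at 30 °C by 5.20 ± 1.27 (SE). SPBTRNAGLY.09 rose in the libraries labelled rrp6Δ by 6.36 ± 1.28 (SE), with limma adjusted p = 0.00702. Fragments of SPBTRNAGLY.09 per depth there were 5.48-fold the wild type floor. The SPCTRNASER.11 call at 23 °C was lost without double mutant replicate 2, and the SPBTRNAGLY.09 call without rrp6Δ-labelled replicate 1 (limma adjusted p = 0.0723 and 0.0564). Without wild type replicate 2 the other calls in these 5 rows were lost, those of SPATRNAPRO.02, SPATRNALEU.03 and SPATRNASER.01 and those of SPCTRNASER.11 in rrp6-cat and in the double mutant at 30 °C. The calls of SPATRNALEU.03 at 23 °C and SPCTRNASER.11 at 30 °C were lost with any 1 of the 4 compared libraries left out. Whether a call in 1 group and its absence in another is a difference was tested only as follows.

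**Figure D4:**
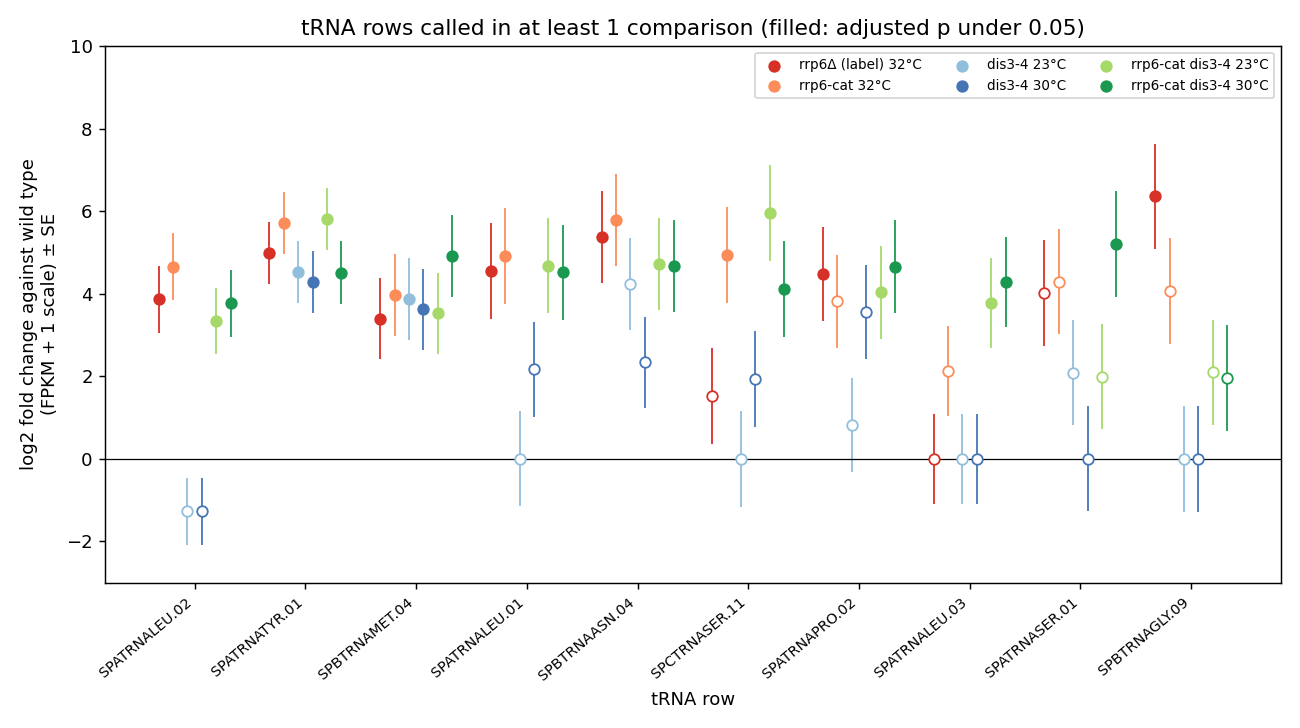
Points give the limma log2 fold change of FPKM + 1 against wild type (y axis, ± SE) for the 10 tRNA rows called in at least 1 comparison (x axis), coloured by mutant group, with filled points for adjusted p under 0.05. SPATRNATYR.01 and SPBTRNAMET.04 are filled in all 6 groups, and the dis3-4 points of SPATRNALEU.02 lie below 0, where that row was listed at 0 and wild type held 1 fragment.

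The double mutant was compared with dis3-4 at the same temperature, and 2 tRNA rows were called higher in it at 23 °C, where 0.723% of features were higher and 0.263% lower, and 1 at 30 °C, where 1.51% were higher and 0.329% lower. SPATRNALEU.02 was higher in the double mutant by 4.62 ± 0.81 (SE) on the log2 scale at 23 °C (limma adjusted p = 0.0243) and by 5.04 ± 0.81 at 30 °C (adjusted p = 0.0115). SPCTRNASER.11 was higher at 23 °C by 5.96 ± 1.17 (SE) on the log2 scale (limma adjusted p = 0.0369). In fragments per depth, these were 1.38-fold, 1.37-fold and 3.1-fold a floor of 3 fragments in the dis3-4 group. Those folds rest on 4, 7 and 9 fragments in the double mutant and leave out their counting error. Both calls at 23 °C were lost when any 1 of the 4 libraries was left out, and the call at 30 °C held in 1 of 4 such fits.

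Between rrp6-cat and the libraries labelled rrp6Δ, limma called 0 tRNA rows, against 1.3% of all features higher and 0.395% lower in the latter, and 1 tRNA row had an unadjusted p under 0.05. None was called between 30 °C and 23 °C in dis3-4 or in the double mutant, where 0% of all features were called and 1 and 2 tRNA rows had an unadjusted p under 0.05. For the interaction of temperature with the rrp6-cat allele in dis3-4, limma also called none among 0% of features, with 3 tRNA rows at an unadjusted p under 0.05. At these fragment counts such results do not show that the groups are alike.

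The genes that make and process tRNAs were followed from lists of known members. Of 12 measured genes for RNA polymerase III subunits, 1 was called, rpc1, the largest subunit, which rose in the double mutant from 18.8 ± 9.68 FPKM (SD, n = 2) in wild type to 58.4 ± 9.13 at 23 °C and 67.8 ± 7.84 at 30 °C (limma adjusted p = 0.0199 and 0.00931), where 9.42% and 11.7% of all features were higher. Both calls were lost without wild type replicate 2. Of 10 measured genes for initiation factors of this polymerase and its repressor, tbp1, the TATA-binding protein used by all 3 nuclear polymerases, rose from 150 ± 14.9 FPKM (SD, n = 2) in wild type to 429 ± 80.6 in the libraries labelled rrp6Δ, 346 ± 30.95 in dis3-4 at 30 °C, and 437 ± 6.62 and 529 ± 83.3 in the double mutant. Its limma adjusted p was 0.00285, 0.014, 0.00328 and 0.00101. In the libraries labelled rrp6Δ brf1, a subunit of TFIIIB, rose as well, by 1.18 ± 0.30 (SE) on the log2 scale (limma adjusted p = 0.0258), a call lost without wild type replicate 2, without either rrp6Δ-labelled library and with quantile normalization.

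Of 17 measured genes for end processing, splicing and export, pop5, a protein subunit of RNase P and RNase MRP, rose from 23.4 ± 17.4 FPKM (SD, n = 2) in wild type to 98.4 ± 8.86 in the libraries labelled rrp6Δ (limma adjusted p = 0.00558), a call lost without rrp6Δ-labelled replicate 2. It also rose in both dis3-4 groups and in the double mutant at 30 °C, calls that were lost without wild type replicate 2. Of 23 measured tRNA modification genes, ctu1, a thiolation enzyme, and elp5, an Elongator subunit, rose in the double mutant at 30 °C (limma adjusted p = 0.0363 and 0.00915), 2 of 23 against 11.7% of all features. The ctu1 call was lost when any 1 of the 4 libraries was left out.

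Of 11 measured genes for tRNA surveillance and decay, air1, the zinc-knuckle subunit of TRAMP, rose from 23.6 ± 0.124 FPKM (SD, n = 2) in wild type to 44.5 ± 0.694 in dis3-4 at 23 °C, 43.7 ± 5.31 in the double mutant at 23 °C and 50.5 ± 1.99 there at 30 °C. Its limma adjusted p was 0.0375, 0.0259 and 0.00777. The TRAMP polyA polymerase gene cid14 rose in the double mutant at 30 °C (limma adjusted p = 0.0192), and rrp6 itself in the libraries labelled rrp6Δ (adjusted p = 0.0482). Without wild type replicate 2 the cid14, rrp6 and air1 calls were lost, except air1 in the double mutant at 30 °C. That air1 call was lost without either double mutant library at 30 °C and with array weights per group. The cid14 and rrp6 calls were also lost without either library of their mutant group. In these 5 lists no gene was called lower than in wild type, where between 0.723% and 2.7% of all features were. The counts of higher genes, 0 to 2 per list and comparison, stand against 4.39% to 11.7% of all features.

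Lower calls were found among the aminoacyl-tRNA synthetases, which charge tRNAs with their amino acids. Of 31 measured, 5 were lower in the libraries labelled rrp6Δ, where 2.7% of all features were lower, and their median log2 difference was -0.53 against 0.23 for all features. There were 2 lower in dis3-4 at 30 °C (2.2% of features), 1 at 23 °C (0.723%), and 3 in each double mutant group (2.38% at 23 °C and 2.22% at 30 °C). The asparagine enzyme gene nrs1 fell from 368 ± 34.8 FPKM (SD, n = 2) in wild type to 163 ± 15.0 in the libraries labelled rrp6Δ (limma adjusted p = 0.00385), and the aspartate enzyme gene drs1 from 285 ± 68.9 to 122 ± 8.64 in the double mutant at 30 °C (adjusted p = 0.00436). In rrp6-cat none was lower (0.756% of features), and the serine enzyme gene srs1 rose from 141.5 ± 41.4 to 292 ± 0.158 FPKM (adjusted p = 0.0142), a call lost without wild type replicate 2. The count in the libraries labelled rrp6Δ moved with the scaling, to 15 with median-ratio size factors and 13 with quantile normalization, and to 0 with array weights per group. It was 1 without rrp6Δ-labelled replicate 2, 2 without wild type replicate 1 and 9 without wild type replicate 2.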

How the data were processed

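The deposited table gives FPKM per gene in 14 polyA libraries, which the authors made with Cuffnorm; the submitters' processing notes also name TopHat2 2.1.0, Bowtie2, Cufflinks 2.2.1, Cuffdiff and build ASM294v2, with no word there on multiply mapped reads. Libraries were grouped by their labels. The 3′ end ligated libraries were not analysed here. Fragments were recovered from FPKM times RefSeq ASM294v3 gene length. As a check on other features under 150 nt and under 10 steps, whole multiples of the same constants, within 0.02, were found for 58 of 58 values of long non-coding RNAs, 18 of 20 of rRNAs and 114 of 139 of snoRNAs, and under 600 nt for 1498 of 1734 values of long non-coding RNAs.

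Group means of log2(FPKM + 1) were fitted with limma 3.58.1 (R 4.3.3, intensity trend, two-sided, all 7 groups sharing 1 spread). The fit was tested on simulated data with normal noise, and changes were placed only in features above a set level. That simulation held no counts of fragments, so it does not check the calls in the tRNA rows. The filter was a mean of 1 FPKM. Members and lists were chosen with earlier results of these data known. Named rows are the 8 with the highest mean, up to 6 called rises and 4 falls per comparison, and the highest row of each amino acid. For gene lists, up to 3 called members per comparison are named. Synthetases were found by their product name in the reference, and 31 of 35 passed the filter. Alternatives were the pseudocount, filter, scaling, array weights, replicate block and leaving out each library.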

Additional observations from a re-analysis of the deposited data

How the results depend on the processing

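The tRNA calls are few and rest on few fragments. No call changed direction under any setting run, but most calls were for rows at 0 in the lower group, which leaves little room for a change. Of the 37 calls, 37 held with median-ratio size factors and with the replicate block, 31 with quantile normalization, 25 and 24 with a pseudocount of 0.1 and 10, 16 with no filter and 10 with array weights per group. Of the 34 calls against wild type, 11 held without wild type replicate 2, the shallowest library, and 32 without wild type replicate 1. The cause was not tested.

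Counts that moved by more than 1.5 times follow. With no filter they were 4 for the libraries labelled rrp6Δ, 3 for rrp6-cat, 1 and 1 for dis3-4 at 23 °C and 30 °C, 2 and 4 for the double mutant at 23 °C and 30 °C, all against wild type, and 0 for the double mutant against dis3-4 at 23 °C. With array weights per group they were 1, 2, 0, 0, 1 and 3 in the same order, and 6 and 3 for the double mutant against dis3-4 at 23 °C and 30 °C. A pseudocount of 0.1 gave 1 for dis3-4 at 30 °C, 5 for the double mutant at 23 °C and 1 for the double mutant against dis3-4 at 23 °C. A pseudocount of 10 gave 0 and 0 for dis3-4, 1 for the libraries labelled rrp6Δ against rrp6-cat and 2 for the double mutant against dis3-4 at 30 °C.

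With 1 library of the compared groups left out at a time, the lone library being taken to vary like the other groups, the counts against wild type ranged from 1 to 7 for the libraries labelled rrp6Δ and for rrp6-cat, 0 to 2 and 0 to 4 for dis3-4 at 23 °C and 30 °C, and 1 to 8 for each double mutant group. Without wild type replicate 2 they were 4, 3, 1, 1, 3 and 3. The lowest counts came without rrp6Δ-labelled replicate 1, rrp6-cat replicate 2, dis3-4 replicate 1 at 23 °C and replicate 2 at 30 °C, and double mutant replicate 2 at 23 °C and replicate 1 at 30 °C. For the libraries labelled rrp6Δ against rrp6-cat the range was 0 to 1, with the 1 found without rrp6-cat replicate 1, and for the double mutant against dis3-4 it was 0 at 23 °C and 0 to 1 at 30 °C. Leaving out a library of a group not compared, which changes the shared spread, gave 6 to 8 for the libraries labelled rrp6Δ, 4 to 8 for rrp6-cat, 1 to 2 for each dis3-4 group, and 5 to 8 and 8 to 10 for the double mutant at 23 °C and 30 °C, all against wild type, and 0 to 3 and 1 to 3 for the double mutant against dis3-4.

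The replicate numbers say nothing of a shared culture or day, so they were not taken to pair the samples. Differences between replicates correlated between groups at -0.154 to 0.315 (median 0.0313, 21 pairs of groups). With the replicate block the count for the double mutant against dis3-4 at 30 °C was 2 in place of 1, and no other count moved by more than 1.5 times.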

Other observations

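The authors' deposited table of combined values, made with Cuffdiff for 5 of the groups, held 30 nuclear tRNA rows above 0, all with a single-copy gene sequence. By the authors' deposited table, wild type had 5 of these rows above 0, with 25 in the libraries labelled rrp6Δ, 27 in rrp6-cat, 11 in dis3-4 at 30 °C and 20 in the double mutant at 30 °C. The 5 wild type rows were those above 0 in replicate 1, while 7 rows were above 0 in either wild type library. SPATRNAILE.02 and SPATRNAALA.06, at 19.7 and 23.5 FPKM in wild type replicate 2 alone, stood at 0 in the combined wild type values. The wild type count is thus not comparable with those of the mutants. SPATRNALEU.03, the row whose fragments could not be recovered, was listed in the authors' deposited table at 9.30 in rrp6-cat, 20.01 in the double mutant at 30 °C and 0 in wild type and dis3-4 at 30 °C.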
